A study of Mus musculus with 46 samples.

Results

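The 9 genes described here handle retinoids, the family of vitamin A and its derivatives, in visceral fat of mice. They are Rbp4, Stra6, Rdh10, Dhrs3, Aldh1a1, Aldh1a7, Rara, Rarb and Rarg, and each was found by its symbol among the 24338 genes of the deposited expression table. They were chosen by their RNA levels and differences in these same libraries, seen in earlier results, so their values are given as a description, with errors and without p-values. Mice were given vehicle (VEH) or corticosterone (CORT), the glucocorticoid hormone of rodents, whose excess models Cushing's syndrome. Total RNA of visceral adipose tissue was sequenced in 5 libraries for each of 4 groups. CORT_5w is labelled as the active disease at 5 weeks and CORT_15w as the recovered state at 15 weeks, and VEH_5w and VEH_15w are their controls. The labels give no strain, age, dose or genotype, and nothing in them says whether the 5 libraries of a group came from separate animals, so that p-values measure the spread between these libraries, which may be technical.

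Retinol travels in blood bound to the carrier RBP4 and enters cells by diffusion or through receptors such as STRA6. Inside the cell RDH10 oxidises retinol to retinaldehyde, DHRS3 reduces retinaldehyde back to retinol, and the retinaldehyde dehydrogenases of the ALDH1A family oxidise it irreversibly to retinoic acid. Retinoic acid binds the nuclear receptors RARα, RARβ and RARγ, which pair with retinoid X receptors on DNA and switch on genes, Rarb and Dhrs3 among them. Fat is a main site of retinol storage outside the liver and secretes RBP4, and retinaldehyde and retinoic acid are known to restrain adipocyte differentiation.

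RefSeq promoters (mouse build GRCm38.p6, from 250 bases before to 50 bases after a start site) were matched by symbol for 8 of the 9 genes, 19 start sites in all. Rdh10 had no entry in the table. Retinoic acid receptors bind pairs of 6-base core sites, searched here on both strands in 4 forms. These are the consensus AGGTCA, the form AGTTCA that closes the Rarb element, the form GGTTCA that opens the Rarb element, and the form GGGTCA. The direct repeat of such core sites spaced by 5 bases is the classical retinoic acid response element and overlaps the core sites it is made of. The first sequence shown is the Rarb promoter (chr14:16575477-16575596, minus strand), which holds this repeat, in capitals, from 53 bases before the start site.
Rarb: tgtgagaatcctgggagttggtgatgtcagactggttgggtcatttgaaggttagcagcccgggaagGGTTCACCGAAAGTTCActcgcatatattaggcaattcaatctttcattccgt
This repeat occurred in 0.0974% of the 32851 promoters of the table and, among the 19 promoters of these genes, in that of Rarb. A core site of any of the 4 kinds occurred in 8 of the 19, against 43.7% of all promoters. The next pair compares Aldh1a1 (second of its start sites, chr19:20601818-20601967, plus strand) and Aldh1a7 (chr19:20727557-20727706, minus strand) just before their start sites, with the core site GGGTCA, read on the other strand as TGACCC, in capitals.
Aldh1a1: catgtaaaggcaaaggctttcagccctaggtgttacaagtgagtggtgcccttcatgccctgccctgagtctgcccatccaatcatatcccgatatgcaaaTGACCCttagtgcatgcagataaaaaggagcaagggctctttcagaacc
Aldh1a7: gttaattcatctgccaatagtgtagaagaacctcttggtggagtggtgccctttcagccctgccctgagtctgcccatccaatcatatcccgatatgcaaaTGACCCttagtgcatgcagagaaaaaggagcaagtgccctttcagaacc
Of these 150 positions, set side by side without gaps, 108 carried the same base (72.0%), and over 250 bases before the start sites 51.6% did. The first start site of Aldh1a1 shared 25.2% of 250 bases with Aldh1a7. In both sequences shown the core site began 49 bases before the start site. The genes are paralogs, and how far reads of one were counted for the other was not tested, so their separate levels are uncertain to that extent. The last pair shows Dhrs3 (chr4:144892577-144892676, plus strand), the gene whose level stood apart from vehicle at both times, and Rbp4 (chr19:38125322-38125441, minus strand). Capitals mark TGTTCT, the core site of the glucocorticoid receptor, in Dhrs3, where it is read on the other strand as AGAACA, and GGGTCA, again as TGACCC, in Rbp4.
Dhrs3: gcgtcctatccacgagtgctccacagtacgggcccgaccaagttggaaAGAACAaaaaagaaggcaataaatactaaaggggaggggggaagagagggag
Rbp4: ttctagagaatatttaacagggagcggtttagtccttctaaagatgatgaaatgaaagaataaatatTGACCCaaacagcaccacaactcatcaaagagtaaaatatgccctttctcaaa
Both are shown at start site 1, and the marked site was not found at the other start sites of either gene. TGTTCT occurred in 19.0% of all promoters and in 3 of the 19, and GGGTCA occurred in 13.7% of all promoters. Among the 19, GGGTCA was found for Rbp4 (start site 1), Aldh1a1 (start site 2), Aldh1a7, Rara (start site 3) and Rarb. These matches are descriptions of letters, not of bound sites.

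Levels are in FPKM (reads per kilobase of a gene, corrected for library size), and log2 differences are on the log2(FPKM + 1) scale, with the standard error (SE) from a limma trend model of 4 group means over all 20 libraries. The recovered depth was 25.14 to 42.63 M reads per library. Adipoq, a defining adipocyte gene, stood at 1641 to 4016.5 FPKM in the 20 libraries, so that none lacked it. In bulk tissue, fewer cells of a type and less RNA per cell cannot be told apart. Of the 20 libraries, 7 stood out for genes of other organs, taken here as liver, epididymis and testis. Alb, the serum albumin made by liver, stood at 2095 FPKM in CORT_5w replicate 2 and at 16.8 to 51.8 FPKM in the rest of its group. Crisp1, a gene of the epididymis, stood out in CORT_5w replicate 4, VEH_5w replicate 3 and VEH_15w replicate 5. Of the other 7 epididymis markers, Adam7 and Defb1 were high beside it in VEH_15w replicate 5 (76.5 and 7.78 FPKM), whereas in the other two libraries none of the 7 exceeded 0.422 FPKM. Prm2, a gene of spermatids, stood out in CORT_5w replicate 3, CORT_15w replicates 1 and 5 and, again, VEH_15w replicate 5. CORT_15w replicate 4, not among the 7, had the highest summed level of 8 B and plasma cell markers, 152.1 FPKM. The highest sums of the other groups were 7.17 FPKM in CORT_5w, 11.48 FPKM in VEH_5w and 44.35 FPKM in VEH_15w. Adam7 stood at 2.69 FPKM in CORT_15w replicate 2, also outside the 7. Leaving out the 7 libraries therefore does not remove all such transcripts. It leaves replicates 1 and 5 of CORT_5w and replicates 2, 3 and 4 of CORT_15w. VEH_5w then lacks replicate 3 and VEH_15w lacks replicate 5. Values and calls without the 7 thus rest on fewer libraries. The parts of the smaller groups and of the removed transcripts in such changes cannot be told apart.

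Over the 20 libraries the mean levels ran from 158 FPKM for Aldh1a1 and 146 FPKM for Rbp4 through 69.3 FPKM for Dhrs3 and 49.1 FPKM for Aldh1a7. Then came Rarg at 8.13, Rdh10 at 5.45, Rara at 2.91, Rarb at 1.60 and Stra6 at 0.130 FPKM. The ranges over libraries of neighbours in this order overlapped, with exceptions at Aldh1a7 against Rarg and at Rarb against Stra6. At 5 weeks 3 of the 9 genes (Dhrs3, Aldh1a1 and Aldh1a7) had no overlap between CORT and VEH, each higher in CORT, and among all genes tested 28.9% had none in either direction and 15.6% stood higher in CORT. At 15 weeks this held for Dhrs3, against 8.07% of all genes in either direction and 3.14% higher. Past an adjusted p of 0.05 stood 4 of the 8 tested genes at 5 weeks, all higher in CORT (43.8% of all 15601 genes tested, 22.3% called higher), 1 at 15 weeks, also higher (10.6% of all genes, 3.83% called higher) and 3 in the difference between the times (16.7%). Since the genes were chosen with these values known, nothing is read from those counts.

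**Figure D1:**
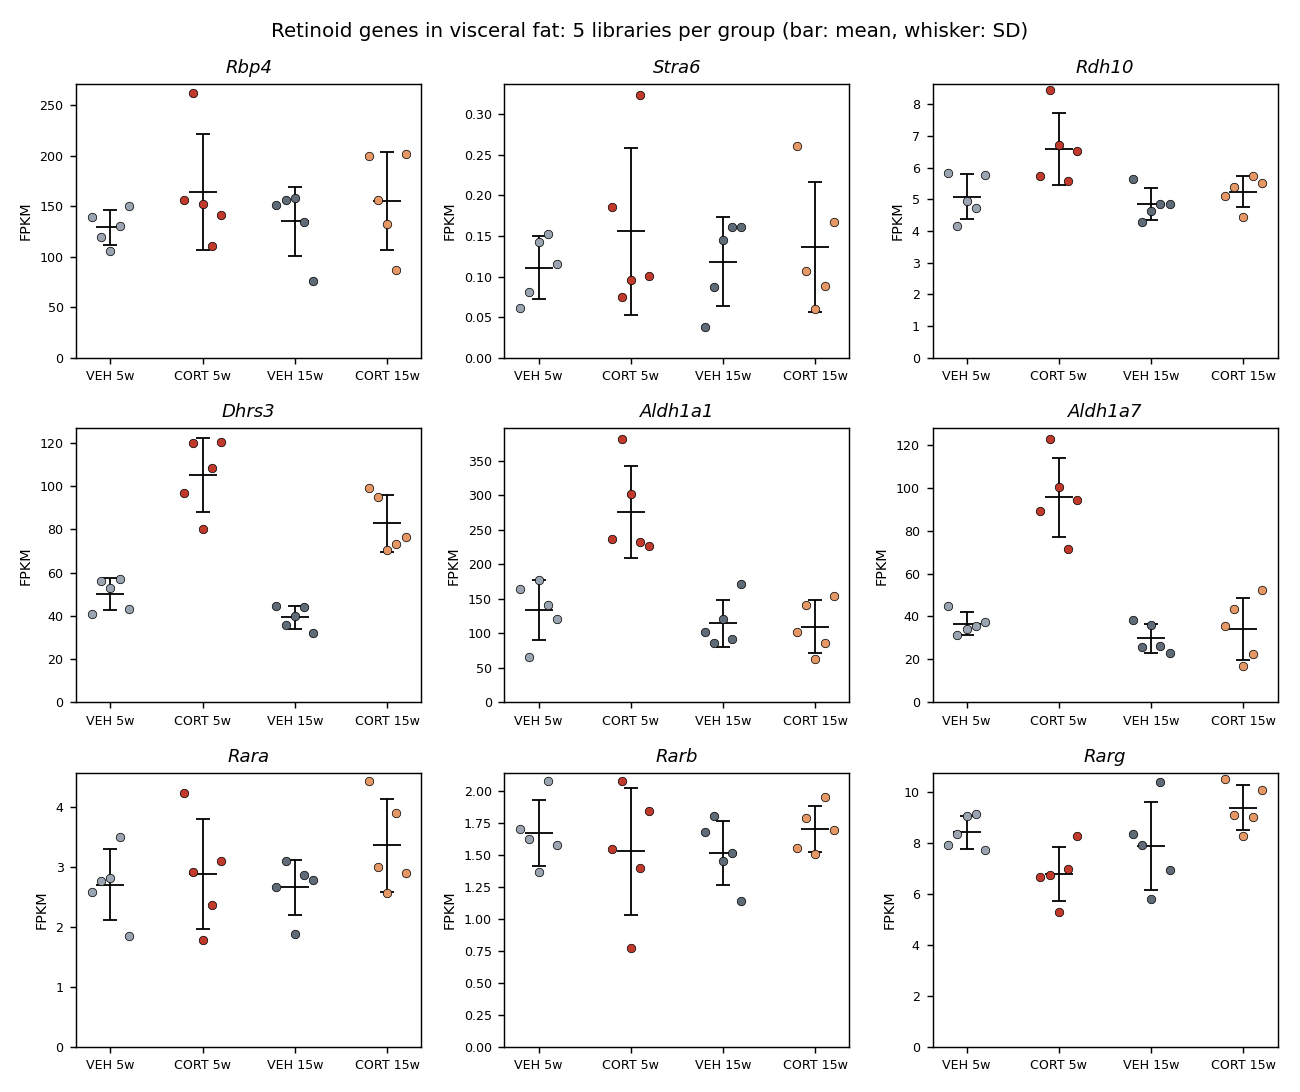
FPKM of the 9 retinoid genes in each library (points), by group, with the group mean (bar) and SD (whisker); each panel has its own axis from 0. Dhrs3 is higher in CORT than in VEH at both times, Aldh1a1 and Aldh1a7 at 5 weeks, and the groups of the other genes overlap.

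Rbp4, the carrier gene, was among the most abundant of the set and its CORT and VEH groups overlapped at both times. The 5 CORT_5w libraries stood at 157, 262, 152, 110.3 and 141 FPKM, and the 5 VEH_5w libraries at 139, 119, 105, 131 and 151 FPKM. One CORT library, replicate 2, lay far above all others, and it is the library with liver transcripts. The means were 164 ± 57.4 and 129 ± 17.5 FPKM (SD, n = 5 each), a log2 difference of 0.30 (SE 0.25), and 0.11 without replicate 2 of CORT_5w. At 15 weeks the CORT libraries spread from 86.5 to 202 FPKM (median 156) and the VEH libraries from 76.4 to 158 FPKM (median 151). The log2 difference was 0.18 (SE 0.25), and without the 7 libraries with transcripts of other organs it turned to -0.30. Leaving out 1 library moved it between -0.01 (without VEH_15w replicate 5) and 0.37 (without CORT_15w replicate 4). Rbp4 transcripts are also abundant in liver, and the part of liver RNA in the high library was not tested. Stra6, the receptor for RBP4, was barely detected, at 0.0374 to 0.323 FPKM, which corresponds to 4 to 45 reads per library. It was below the level needed for testing (0.5 FPKM in at least 5 libraries) and its groups overlapped at both times. The authors' deposited table gives Stra6 a log2 fold change of 0.49 (SE 0.56) at 5 weeks and 0.20 (SE 0.59) at 15 weeks, each smaller than its error.

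Rdh10 and Dhrs3 catalyse opposite reactions, and their products form a complex in which each raises the other's activity. Rdh10 was expressed at a low level. It stood at 5.75, 8.44, 6.71, 5.58 and 6.54 FPKM in CORT_5w and at 5.84, 4.16, 4.95, 4.73 and 5.76 FPKM in VEH_5w. The groups overlapped, with the liver-carrying replicate 2 again the highest. The log2 difference was 0.32 (SE 0.10) with all libraries and 0.24 without that library, the lowest of the values with 1 library left out, which ran up to 0.37. At 15 weeks Rdh10 was at 5.24 ± 0.497 FPKM in CORT and 4.86 ± 0.504 FPKM in VEH (SD, n = 5), a log2 difference of 0.09 (SE 0.10).

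Dhrs3 was the gene of the set that differed from vehicle by about the same amount at both times. At 5 weeks CORT libraries stood at 97.0, 120.0, 80.02, 108.6 and 120.5 FPKM and VEH libraries at 41.1, 56.0, 53.1, 56.9 and 43.0 FPKM. At 15 weeks CORT libraries stood at 98.9, 94.8, 70.6, 73.1 and 76.4 FPKM and VEH libraries at 44.4, 35.9, 40.1, 44.3 and 32.0 FPKM. At either time the lowest CORT library lay above the highest VEH library. The CORT mean was 2.1 times the VEH mean at 5 weeks (105.2 ± 17.1 against 50.0 ± 7.44 FPKM) and 2.1 times at 15 weeks (82.8 ± 13.1 against 39.3 ± 5.39 FPKM; SD, n = 5). The log2 differences were 1.06 (SE 0.14) and 1.05 (SE 0.14), and the difference between the times was 0.00 (SE 0.19). Leaving out any 1 library kept the 5-week value between 0.99 and 1.15 and the 15-week value between 0.98 and 1.11. Quantile normalization lowered the 5-week value to 0.79 and raised the difference between the times to 0.43. The VEH mean itself was lower at 15 weeks than at 5 weeks, with a difference of -0.34 on the log2 scale (SE 0.14). The authors' deposited table gives Dhrs3 log2 fold changes of 1.07 and 1.08 at 5 and 15 weeks. The liver-carrying replicate 2 was no outlier for Dhrs3: it stood at 120.0 FPKM beside 120.5 FPKM in replicate 5.

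Set against each other within a library, the level of Dhrs3 over that of Rdh10 was 16.2 ± 3.09 in CORT_5w and 10.1 ± 2.82 in VEH_5w (SD, n = 5), and the ranges of 11.9 to 19.5 and 7.04 to 13.5 overlapped. At 15 weeks the ratio was 15.9 ± 2.70 in CORT and 8.12 ± 0.976 in VEH, with ranges of 12.7 to 19.3 and 6.58 to 9.14 that did not overlap. The excess of the reductase transcript over the oxidase transcript was therefore larger in CORT at 15 weeks in every library, as measured by RNA, which is not a measure of enzyme activity.

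**Figure D2:**
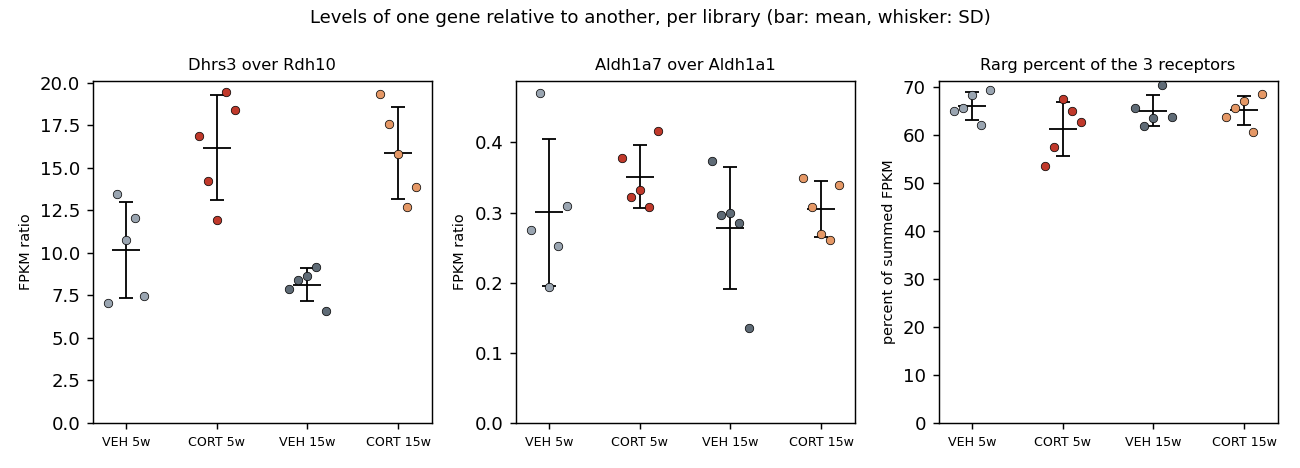
Ratio of Dhrs3 to Rdh10, ratio of Aldh1a7 to Aldh1a1 (both FPKM over FPKM) and Rarg as a percent of the summed FPKM of the 3 receptors, 1 point per library, with group mean (bar) and SD (whisker). The ratio of Dhrs3 to Rdh10 runs from 12.7 to 19.3 in CORT and from 6.58 to 9.14 in VEH at 15 weeks, while the groups of the other panels overlap at both times.

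Aldh1a1, the main retinaldehyde dehydrogenase of mouse fat, was higher in CORT at 5 weeks and overlapped with vehicle at 15 weeks. CORT_5w libraries stood at 236, 381, 302, 232 and 227 FPKM and VEH_5w libraries at 164, 66.2, 178, 141 and 121 FPKM. At 15 weeks CORT libraries stood at 102, 141, 63.4, 85.6 and 154 FPKM and VEH libraries at 102, 86.3, 121, 91.5 and 171 FPKM. The lowest CORT_5w library was above the highest VEH_5w library, whereas the 15-week groups overlapped, with the CORT range lower at both ends. The 5-week means were 276 ± 66.5 and 134 ± 43.7 FPKM (SD, n = 5), a ratio of 2.06 and a log2 difference of 1.08 (SE 0.27). At 15 weeks the log2 difference was -0.09 (SE 0.27), and the difference between the times was -1.17 (SE 0.38). Replicate 2 of CORT_5w was the highest of all 20 libraries. Without the 7 libraries with transcripts of other organs the 5-week log2 difference was 0.98.

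Aldh1a7, a rodent paralog of Aldh1a1 reported in mouse not to oxidise retinaldehyde, followed a like course at a lower level. It stood at 89.1, 122, 100.2, 71.6 and 94.3 FPKM in CORT_5w and at 45.1, 31.2, 34.4, 35.5 and 37.3 FPKM in VEH_5w. It stood at 35.7, 43.4, 17.0, 22.3 and 52.5 FPKM in CORT_15w and at 38.2, 25.6, 36.1, 26.0 and 23.1 FPKM in VEH_15w. Every CORT_5w library lay above every library of the other 3 groups. The 5-week means were 95.5 ± 18.5 and 36.7 ± 5.20 FPKM (SD, n = 5), a ratio of 2.6 and a log2 difference of 1.35 (SE 0.24), the largest of the set. The 15-week log2 difference was 0.11 (SE 0.24) and that between the times -1.24 (SE 0.33). Without the 7 libraries the 5-week value was 1.29 and the 15-week value -0.27.

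The level of Aldh1a7 relative to Aldh1a1 was 0.351 ± 0.0448 in CORT_5w, 0.300 ± 0.104 in VEH_5w, 0.305 ± 0.0400 in CORT_15w and 0.278 ± 0.0872 in VEH_15w (SD, n = 5), and the 4 ranges overlapped. The lowest ratio in each of 3 groups was in a library where Crisp1 was high. These were CORT_5w replicate 4 with 0.308 (Crisp1 at 1430 FPKM), VEH_5w replicate 3 with 0.194 (Crisp1 at 649 FPKM) and VEH_15w replicate 5 with 0.135 (Crisp1 at 1261 FPKM). Of the other epididymis markers, Adam7 and Defb1 alone were high beside Crisp1, and in the last of these libraries alone. In both VEH libraries Aldh1a1 was the highest of its group, at 178 and 171 FPKM. Whether epididymal RNA had a part in these levels was not tested.

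**Figure D3:**
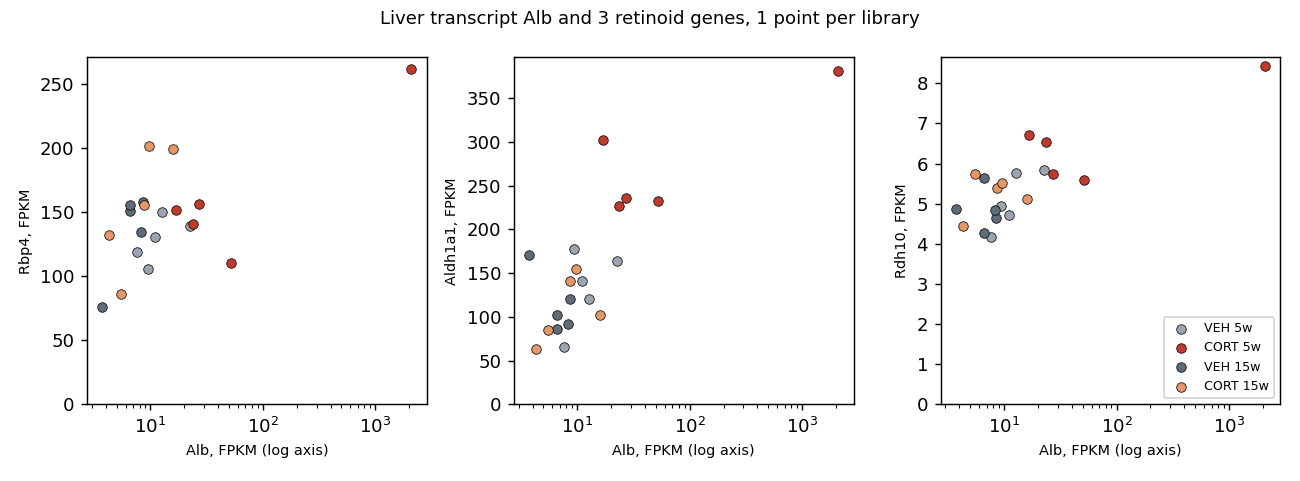
FPKM of Rbp4, Aldh1a1 and Rdh10 against FPKM of the liver transcript Alb (log axis), 1 point per library, coloured by group. CORT_5w replicate 2, at 2095 FPKM of Alb, is the highest library for all 3 genes (262, 381 and 8.44 FPKM); the other CORT_5w libraries stay above VEH_5w for Aldh1a1.

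The receptors were expressed at low levels, with Rarg the most abundant. Rarg stood at 6.68, 6.76, 5.30, 6.99 and 8.29 FPKM in CORT_5w and at 7.91, 8.36, 9.06, 9.14 and 7.72 FPKM in VEH_5w. At 15 weeks CORT libraries spread from 8.29 to 10.5 FPKM (median 9.10) and VEH libraries from 5.80 to 10.4 FPKM (median 7.92). Lower in CORT at 5 weeks in 4 of 5 libraries, Rarg overlapped with vehicle through replicate 5. The log2 difference was -0.28 (SE 0.12) at 5 weeks and 0.25 (SE 0.12) at 15 weeks, opposite signs, and the difference between the times was 0.53 (SE 0.17). Without the 7 libraries with transcripts of other organs that difference was 0.26.

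Rara and Rarb overlapped with vehicle throughout. Rara had group means of 2.88 ± 0.918 in CORT_5w, 2.71 ± 0.595 in VEH_5w, 3.37 ± 0.779 in CORT_15w and 2.66 ± 0.464 FPKM in VEH_15w (SD, n = 5). Its log2 difference was 0.05 (SE 0.16) at 5 weeks and 0.25 (SE 0.16) at 15 weeks. Without the 7 libraries the 5-week value became 0.35, resting in CORT_5w on replicates 1 and 5 alone (4.24 and 3.10 FPKM). Rarb, whose promoter carries the response element printed above, had group means of 1.53 ± 0.496, 1.67 ± 0.259, 1.70 ± 0.180 and 1.52 ± 0.250 FPKM in the same order. Its log2 difference was -0.10 (SE 0.12) at 5 weeks and 0.10 (SE 0.12) at 15 weeks, each smaller than its error. Summed over the 3 receptors the level was 11.2 ± 2.09 in CORT_5w, 12.8 ± 1.33 in VEH_5w, 14.5 ± 1.51 in CORT_15w and 12.1 ± 2.15 FPKM in VEH_15w. Rarg made up 61.2% of that sum in CORT_5w, 66.0% in VEH_5w, 65.1% in CORT_15w and 65.04% in VEH_15w.

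**Figure D4:**
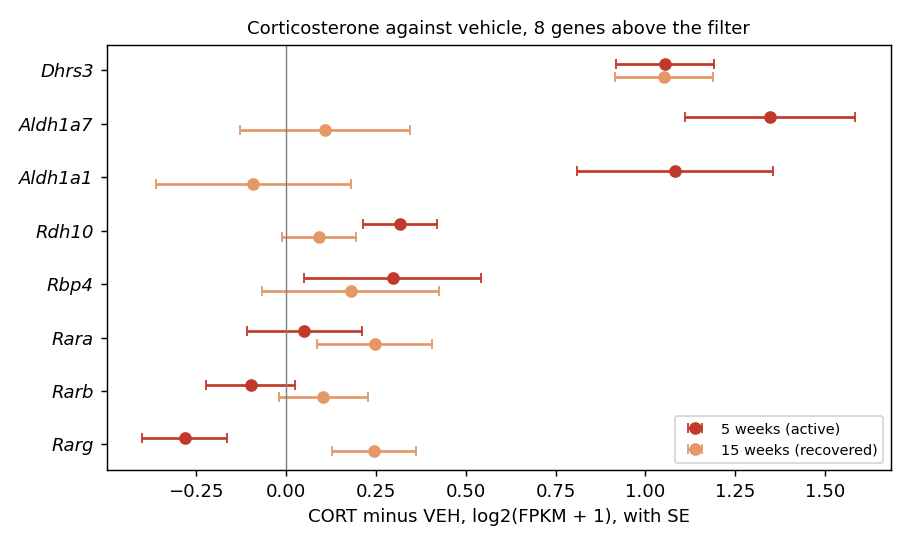
Difference of CORT minus VEH in log2(FPKM + 1) for the 8 genes above the level needed for testing, at 5 weeks (red) and 15 weeks (orange), with SE (whiskers). Dhrs3 sits at 1.06 and 1.05, Aldh1a7 moves from 1.35 to 0.11, Aldh1a1 from 1.08 to -0.09, and Rarg changes sign from -0.28 to 0.25.

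Between the vehicle groups 0 of the 8 tested genes passed an adjusted p of 0.05 by limma trend and 0 by voom, 1 had an unadjusted p below 0.05, and of all genes tested 0.0128% passed. The profiles most like that of Dhrs3 over the 20 libraries, each gene centred and scaled to an SD of 1, belonged to Nacc2, Hip1 and Crip2, at root mean square distances of 0.245, 0.267 and 0.302 among 14224 genes compared. Nacc2 stood at a mean of 14.5 in CORT_5w, 7.75 in VEH_5w, 12.1 in CORT_15w and 6.55 FPKM in VEH_15w. For Aldh1a1 the closest were Sema3c (0.317), Gatad1 (0.341) and Sdhaf4 (0.379), and Sema3c stood at a mean of 48.4 in CORT_5w, 26.7 in VEH_5w, 17.97 in CORT_15w and 21.8 FPKM in VEH_15w. For Rbp4 they were Mfn2 (0.458), Atp9a (0.609) and Apopt1 (0.623). For Stra6, with so few reads, the nearest profile was Shroom3 at 0.597, a distance of little weight.

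Of 51 other genes of the pathway, 39 could be tested and 12 were below the level needed, among them the catabolic enzymes Cyp26a1 and Cyp26c1 and the esterifying enzyme Lrat. At 5 weeks 11 rose and 7 fell in CORT (limma trend, Benjamini-Hochberg adjusted p below 0.05), 46.2% of those tested beside 43.8% of all genes, with a median log2 difference of 0.11 beside 0.01. The list was drawn up with earlier results of these data known, and a share so near that of all genes is not a result about the pathway. By role, 3 of 8 genes of uptake and binding rose and 1 fell, and 4 of 15 of oxidation and reduction rose and 2 fell. Of 6 receptor partners and cofactors 1 rose and 3 fell, and of 5 genes listed as targets of retinoic acid 3 rose and 1 fell. The risen genes include Ttr and Adh4, both highest in the liver-carrying CORT_5w replicate 2, and the call of Ttr was lost under 8 alternatives. They also include Rdh11, whose call was lost without CORT_5w replicate 3, and Stra6l, tested through CORT libraries alone.

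Among the binding proteins Fabp5, which carries retinoic acid and fatty acids to the nucleus, rose from a high level. Its CORT_5w libraries stood at 309 to 456 FPKM (mean 374 ± 59.3, n = 5) and its VEH_5w libraries at 42.4 to 66.2 FPKM (mean 55.1 ± 9.50), a log2 fold change of 2.74 (SE 0.17, limma adjusted p = 2.75e-09). At 15 weeks it was at 78.5 ± 20.5 and 59.97 ± 10.7 FPKM, and the fold change was lower than at 5 weeks, with a difference of -2.38 on the log2 scale (SE 0.24, limma adjusted p = 1.26e-05). Rbp7, a cellular retinol-binding protein of fat, fell at both times. It stood at 79.4 ± 19.8 FPKM in CORT and 254 ± 82.1 FPKM in VEH at 5 weeks (log2 fold change -1.63, SE 0.24, limma adjusted p = 3.77e-05). At 15 weeks it stood at 163 ± 39.5 and 322 ± 77.0 FPKM (log2 fold change -0.99, SE 0.24, limma adjusted p = 0.0156), and in neither comparison did the groups overlap. The 15-week call was lost without CORT_15w replicate 1 (-0.81) and without the 7 libraries (-0.89). Stra6l, a second receptor for RBP4, stood higher in CORT than the near zero of VEH at 5 weeks (1.04 ± 0.787 FPKM in CORT, 0.0767 ± 0.0943 FPKM in VEH). No VEH library of either time reached 0.5 FPKM, the level needed for testing in at least 5 libraries. Stra6l was thus tested through its high CORT libraries alone, and no p-value is given for it. Its log2 fold change was 0.85 with a pseudocount of 1, 2.58 with a pseudocount of 0.1 and 3.98 with voom on the recovered reads. With 1 library left out it was 0.66 to 0.99 with a pseudocount of 1. Stra6l was highest in the liver-carrying CORT_5w replicate 2, at 2.36 FPKM, with the rest of that group at 0.337 to 1.13 FPKM. The part of liver RNA in that value was not tested.

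Among the enzymes Rdh13, a mitochondrial enzyme named as a retinol dehydrogenase, rose at 5 weeks (5.73 ± 0.276 against 4.17 ± 0.264 FPKM, log2 fold change 0.38, limma adjusted p = 0.00132). Dhrs9, a retinol dehydrogenase, rose as well (7.68 ± 3.42 against 2.29 ± 1.12 FPKM, log2 fold change 1.36, limma adjusted p = 0.00183), although its groups overlapped. Aldh1a3, of the ALDH1A family, fell at 5 weeks without overlap (6.78 ± 1.49 against 12.7 ± 2.55 FPKM, log2 fold change -0.81, limma adjusted p = 0.00966). That call was lost without the 7 libraries. Rdh1 also fell (-0.35, limma adjusted p = 0.0262), a call lost under 6 alternatives. Dgat1, which esterifies retinol as well as diacylglycerol, did not pass at 5 weeks (-0.33, SE 0.22) and fell at 15 weeks (-0.74, SE 0.22, limma adjusted p = 0.0357), a call lost under 12 of the alternatives.

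Among the receptor partners Rxrg rose at both times. It stood at 5.42 ± 0.970 FPKM in CORT and 1.88 ± 0.591 FPKM in VEH at 5 weeks (log2 fold change 1.17, SE 0.19, limma adjusted p = 7.40e-05). At 15 weeks it stood at 4.59 ± 0.507 and 2.21 ± 0.964 FPKM (log2 fold change 0.85, SE 0.19, limma adjusted p = 0.00921), a call lost without the 7 libraries (0.61). Rxra, the most abundant retinoid X receptor of the 3, fell at 5 weeks (24.5 ± 3.38 against 33.9 ± 2.69 FPKM, limma adjusted p = 0.0016). The corepressor Ncor1 fell as well (30.2 ± 1.08 against 45.8 ± 6.36 FPKM, limma adjusted p = 0.000356), and its effect differed between the times by 0.54 (limma adjusted p = 0.0229), a call lost without the 7 libraries (0.47).

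Of the genes listed as responsive to retinoic acid, Tgm2, a transglutaminase, stood at 81.2 to 104.3 FPKM in CORT_5w and at 40.1 to 47.5 FPKM in VEH_5w (log2 fold change 1.08, limma adjusted p = 9.62e-07). At 15 weeks its log2 fold change was 0.39 (limma adjusted p = 0.0309), lost under 7 alternatives, and 0.25 without the 7 libraries. The fold change of Tgm2 was lower at 15 weeks than at 5 weeks, with a difference of -0.68 (limma adjusted p = 0.00808), or -0.31 and no longer called after quantile normalization. Rarres1, a membrane protein induced by retinoids, rose at 5 weeks (1.45, limma adjusted p = 0.000185), as did Rarres2, which encodes the adipokine chemerin (0.94, limma adjusted p = 0.000159). Rarres2 was highest in the liver-carrying CORT_5w replicate 2 (324 FPKM, next 256 FPKM), and with 1 library left out its log2 fold change was 0.81 to 1.04. Klf2, a transcription factor that restrains adipocyte differentiation, fell (7.21 ± 1.56 against 16.6 ± 2.25 FPKM, log2 fold change -1.11, limma adjusted p = 7.18e-05). Sox9, a transcription factor, rose at 15 weeks (2.25 ± 1.34 against 0.439 ± 0.190 FPKM, log2 fold change 1.09, limma adjusted p = 0.0352), a call lost under 9 alternatives. Its log2 fold change was 2.02 with a pseudocount of 0.1 and 2.23 with voom.

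**Figure D5:**
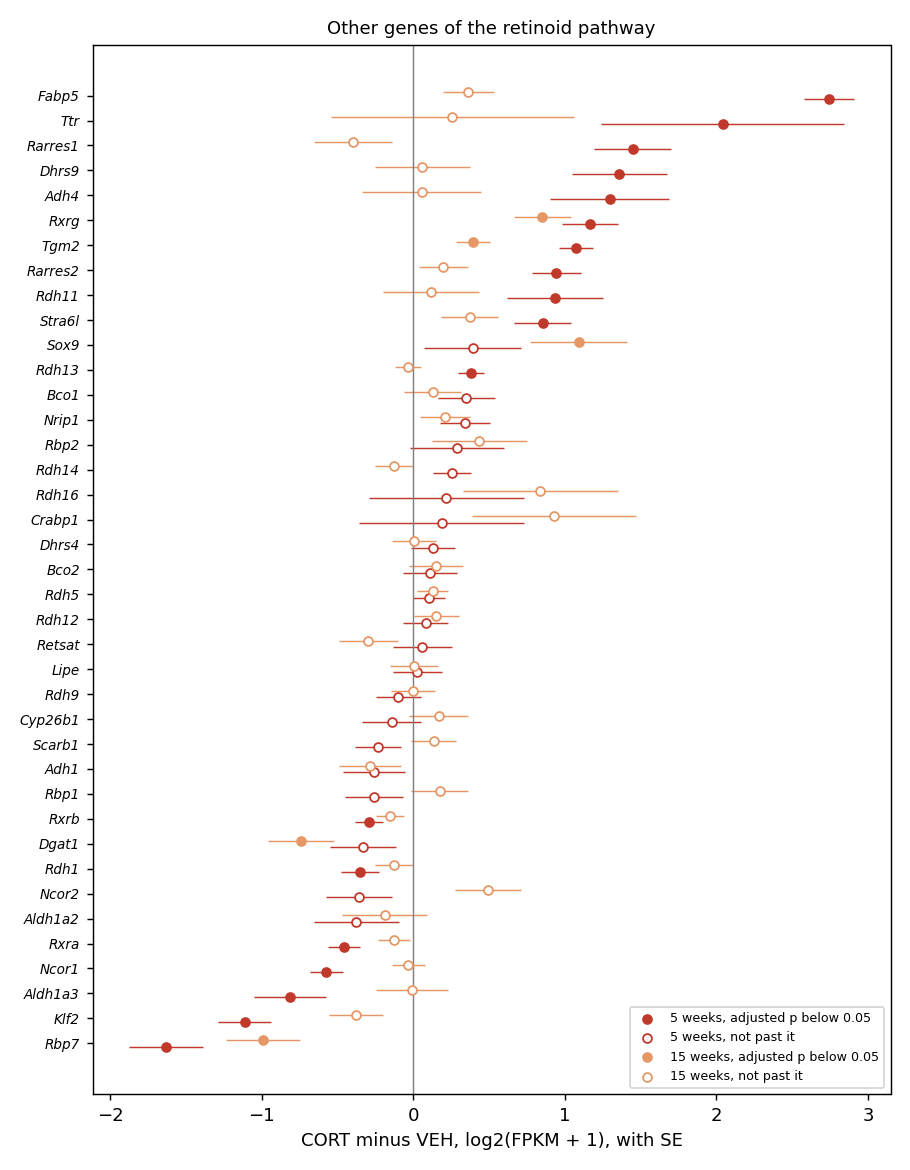
Difference of CORT minus VEH in log2(FPKM + 1), with SE, for the 39 other tested genes of the pathway, at 5 weeks (red) and 15 weeks (orange), ordered by the 5-week value; filled points have a limma adjusted p below 0.05. Fabp5 is at 2.74 and Rbp7 at -1.63 at 5 weeks, and 5 genes are filled at 15 weeks.

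Cell type markers moved at 5 weeks beside these genes. All 8 endothelial markers tested fell in CORT (limma, adjusted p below 0.05), and their summed level was 77.01 to 115.9 FPKM in CORT_5w, 171.3 to 314.3 FPKM in VEH_5w, 179.6 to 207.9 FPKM in CORT_15w and 140.9 to 287.4 FPKM in VEH_15w. Rbp7 and Klf2, which endothelial cells also express, moved with them at 5 weeks. Of 7 macrophage markers 4 rose and 1 fell, and their summed level was 890.5 to 2414 FPKM in CORT_5w, 487.1 to 926.4 FPKM in VEH_5w, 441.4 to 1233 FPKM in CORT_15w and 362.5 to 643.6 FPKM in VEH_15w. Of 8 adipocyte markers 1 rose, and of 8 preadipocyte and fibroblast markers 2 fell. The part of these cell types in the levels of the retinoid genes was not tested.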

How the data were processed

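RNA of 20 libraries was analysed as deposited. The FPKM were made by the authors. TopHat, Bowtie, DESeq2 and DiffBind, and the builds mm9 and dm3, are named in the submitters' processing notes without a role per file. The authors' deposited tables of differential expression give log2 fold changes and their standard error, recorded here as a score. FPKM values were read as whole multiples of a step per gene and library. The step of a gene was chosen to make its values whole reads in all libraries (tolerance 0.02), and every gene above 0 had one. Whole reads for 100% of 382438 values above 0 (tolerance 0.05) follow from that choice, which checks little for genes seen in few libraries. The recovered depth was 25.14 to 42.63 M per library (median 30.11 M). The step followed the median-ratio size factors rather than total reads. FPKM precision at low levels is therefore limited by few reads.

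Log2(FPKM + 1) was fitted with limma 3.58.1 (trend) in R 4.3.3, with 1 model of 4 group means. Genes with at least 0.5 FPKM in at least 5 libraries were tested (15601 of 22416 above 0), two-sided, adjusted by Benjamini-Hochberg, and a gene was called below 0.05. The model was tested on simulated data. Other steps used Python 3.11.15 and pandas 2.3.3. Alternatives were another pseudocount (0.1), no filter, quantile normalization, equal total reads, voom on the recovered reads, fits of the compared groups alone, a replicate block, array weights, and leaving out libraries, singly or the 7 together.

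The genes, lists and rules were chosen with earlier results of these data known. All 9 genes are described. Of the pathway list, called genes could be named, at most 12 per comparison by smallest adjusted p. Aldh1a3, Rdh1, Ttr, Adh4, Rdh11 and Rxrb were named beyond that rule, after their values were seen. For likeness the 3 nearest profiles were taken. Replicate numbers were not taken to pair the libraries. The 41 ChIP-seq tables hold mm9 positions without gene names, and the promoter table is GRCm38.p6, so no histone mark site was placed at a gene and these tables were not used here. The fit that was planned for them, with its 2 alternatives, was not run.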

Additional observations from a re-analysis of the deposited data

Results flagged for a closer look

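In 10 of 116 groups of 5 libraries the highest or lowest library stood apart, by its gap to the next divided by the range of the group. Chance flags about 1 group in 20. Among the retinoid genes themselves this was Rbp4, which was low in VEH_15w replicate 5 (76.4 FPKM, next 134 FPKM, gap 0.714 of the range). That library carries Crisp1 and Prm2.

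The others were among the pathway genes called in a comparison, and Ttr, Adh4 and Rdh11 were named after their values were seen. CORT_5w replicate 2, with liver transcripts, was high for Ttr, the plasma partner of RBP4 (187 FPKM, next 2.98, gap 0.992), and for Adh4, an alcohol dehydrogenase (10.9 FPKM, next 0.977, gap 0.994). VEH_15w replicate 5 was high for Adh4 (1.64 FPKM, gap 0.891) and Rdh11 (24.2 FPKM, next 5.66, gap 0.936), a retinal reductase. CORT_5w replicate 3, with Prm2, was also high for Rdh11 (18.3 FPKM, next 11.7, gap 0.732). Without CORT_5w replicate 2 the 5-week log2 fold change of Ttr was 0.84 instead of 2.04, and that of Adh4 0.77 instead of 1.30. With voom they were 3.13 for Ttr and 3.56 for Adh4, and with a pseudocount of 0.1 Adh4 was at 2.86. The call of Ttr was lost under 8 alternatives, voom among them. VEH_5w replicate 4 was high for Stra6l (0.243 FPKM, gap 0.831) and Sox9 (2.87 FPKM, next 0.897, gap 0.788). CORT_15w replicate 4 was high for Rdh13 (5.49 FPKM, gap 0.748), and CORT_15w replicate 3 was low for Rxrg (3.72 FPKM, gap 0.731).

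The corticosterone effect differed between 15 and 5 weeks by the test of the difference itself (limma, adjusted p below 0.05) for 6 of 39 pathway genes, 15.4% beside 16.7% of all genes, so the count is no result about the pathway. On the log2 scale the effect at 15 weeks minus that at 5 weeks was -2.38 for Fabp5, -0.41 for Rdh13, -0.68 for Tgm2, -1.84 for Rarres1, -0.75 for Rarres2 and 0.54 for Ncor1. The call of Rarres2 was lost under 13 alternatives, with a value of -0.29 after quantile normalization and of -0.84 to -0.61 with 1 library left out. That of Rdh13 was lost under 2, with a value of -0.27 with equal total reads, and those of Ncor1, Rarres1 and Tgm2 under 1 each.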

How the results depend on the processing

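Of 680 alternative values of the 8 tested retinoid genes, 673 moved by less than the spread between libraries (the gene's residual SD) and 7 by more. Leaving out a single library of a group of 5 could not move a value that far. No filter, the replicate block and the fits of the compared groups alone returned the main value itself. For those alternatives the outcome was fixed in advance, so the 673 are no measure of robustness. Of the 7 values that moved by more, and beside those in the report, Rarb differed between the times by 0.41 with voom. Rara differed by -0.16 without the 7 libraries. Of 605 repeats of a pathway gene's call, 536 held, 69 lost the threshold and 0 turned. The 12 with the smallest adjusted p at 5 weeks held in all 19 alternatives each, which that choice favours. Of the other genes called at 5 weeks, the call was lost under 8 alternatives for Ttr, 6 for Rdh1 and 4 for Rxrb. It was lost under 1 each for Rdh11 and Aldh1a3, and held for Adh4.

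Without the 7 libraries 0 of the 39 pathway genes passed limma trend at 15 weeks (5 with all; 7 at an unadjusted p below 0.05), where 0.955% of all genes passed (10.6% with all), and 3 in the difference between the times (6 with all), where 4.59% of all genes passed (16.7% with all). These counts are no results about the pathway, and those without the 7 come from smaller groups. Removing 1 library gave 1 to 5 at 15 weeks: 1 without CORT_15w replicate 1, 2 without CORT_15w replicate 2 or VEH_15w replicate 3, and 3 without CORT_15w replicate 5 or VEH_15w replicates 1, 2 or 4. In the difference it gave 5 to 10, with 10 without VEH_5w replicate 1. No filter left 3 at 15 weeks. Of the retinoid genes, 1 instead of 3 passed in the difference with no filter, with quantile normalization, with array weights and without the 7 libraries. Removing 1 library gave 1 to 3, with 1 for each of 8 libraries: CORT_5w replicates 2, 3 and 4, VEH_5w replicates 2 and 4, CORT_15w replicate 1 and VEH_15w replicates 3 and 5. At 5 weeks it gave 3 to 5, with 3 without CORT_5w replicate 2 or VEH_5w replicate 2 and 5 without CORT_5w replicate 5. Over all genes, 1025 passed upward and 1575 downward in the difference. These were 830 and 1370 with no filter (22416 tested), 1027 and 1041 with quantile normalization and 1286 and 2133 with array weights. Without CORT_5w replicate 2 they were 688 and 1082, and at 5 weeks 3034 and 2979. The retinoid genes were chosen with these values known, so nothing is read from their counts.

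Replicate numbers are shared between groups. Same-numbered CORT and VEH libraries of a time correlated at -0.48 to 0.36 in their deviations from the group means. With 5 libraries per group these values cannot decide whether the numbers mark a pairing or batch, and the main fit used none. The replicate block left 18 pathway genes at 5 weeks, 3 at 15 weeks and 4 of the retinoid genes at 5 weeks. Over all 15601 genes it left 3340 higher and 3166 lower at 5 weeks, and 474 and 852 at 15 weeks.

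Over all genes, 598 rose and 1061 fell at 15 weeks, against 1083 and 626 with equal total reads, and at 5 weeks 3485 and 3350 against 3083 and 3742. Equal totals moved the median difference between the times from -0.02 to 0.11. With voom on the recovered reads 3470 rose and 3456 fell at 5 weeks. Depth limits Stra6 most.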
